A study of Mus musculus with 12 samples.

Results

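The genes described here copy DNA or make its building blocks, or switch that program on when a cell leaves G1. A list of 35 mouse genes was used: subunits of the origin recognition complex and of the MCM helicase, helicase activators, polymerases, clamp and ligation factors, enzymes of deoxynucleotide synthesis, and the G1/S regulators E2f1, E2f2, Ccne1 and Ccne2. Of the 35, 33 had an array row with a single gene symbol and all 33 were bright enough to be tested, among 16860 genes tested in all. Rfc4 and Ccne2 lay only on rows that name several genes and were given no value. Expression was measured on 12 arrays in 4 groups of 3: Tet2-/- cells at passage 10, Tet2-/- cells at passage 2, Tet2fl/fl cells at passage 10 and Tet2fl/fl cells at passage 2. All 12 came from Kit-enriched bone marrow of Tet2fl/fl;CreER mice, in which Cre recombinase is fused to an estrogen receptor domain, and all carried the leukemia fusion AML1-ETO with GFP from a MigR1 retrovirus. The cells were replated in methylcellulose and then kept in suspension with SCF, IL-3 and IL-6. Tet2-/- cultures received 200 nM 4-OHT (4-hydroxytamoxifen) over 2 passages (4 days), and Tet2fl/fl cultures received ethanol, so effects of 4-OHT or of Cre activity and those of losing Tet2 cannot be told apart. Cells were passaged every 2 days, sorted as GFP+, CD11b-, Gr1-, CD16/32+ immature myeloid cells, and 100 ng of RNA was labelled per array. The labels do not say that replicates were separate cultures or mice, so the p-values measure the spread between these samples.

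Before S phase the origin recognition complex, Cdc6 and Cdt1 load the MCM helicase onto DNA, which licenses an origin to fire. Cdc45, GINS and Mcm10 then activate the helicase, and the polymerases follow with their clamp and ligase. Many of these genes are transcribed in late G1 by E2F factors, and their RNA is widely read as a sign of dividing cells, blood progenitors included. Each array averaged over sorted cells, so fewer cells in S phase and less RNA per cell in S phase cannot be told apart.

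The promoters of the members are described by their letters, and a link to the passage differences was not tested. RefSeq promoter windows (GRCm38.p6, 250 bases before to 50 after each annotated transcript start) were found for 28 of the 33 measured genes, in 33 windows. They were searched on both strands for the E2F motif (TTTCCCGC, TTTGGCGC, TTTCGCGC or TTTGCCGC). A match stood in 12 of 33 member windows (36.4%), in 20 of 82 windows of other genes of the pathway (24.4%), in 1 of 20 windows of mitosis genes (5.0%) and in 744 of all 32851 windows (2.26%). The 12 genes with a match were Orc1, Cdc6, Cdt1, Mcm3, Mcm5, Mcm6, Mcm7, Pola1, Pold1, Rfc3, Lig1 and E2f2. The stretches below are from the members that passed a test for passage and whose match lay before the start. Capitals mark the E2F match, and each is written on the strand of its gene.
Orc1, chr4:108579401-108579453, plus strand: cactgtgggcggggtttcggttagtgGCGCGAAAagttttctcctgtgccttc
Mcm5, chr8:75109334-75109393, plus strand: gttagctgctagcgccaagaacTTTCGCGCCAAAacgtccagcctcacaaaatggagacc
Mcm6, chr1:128359719-128359778, minus strand: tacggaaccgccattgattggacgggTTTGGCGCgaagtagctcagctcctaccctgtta
Mcm7, chr5:138172015-138172074, minus strand: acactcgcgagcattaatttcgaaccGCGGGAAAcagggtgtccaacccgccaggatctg
Pola1, chrX:93632260-93632319, minus strand: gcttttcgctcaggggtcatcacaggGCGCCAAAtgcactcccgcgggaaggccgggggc
The Orc1 match began 27 bases before the transcript start and the Mcm6 match 47 bases before it. The Mcm5 stretch holds a pair of matches on opposite strands that overlap in the letters GCGC. Of the other members that passed a test for passage, Orc6, Mcm10, Cdc45, Prim1, Pcna, Tyms, Rrm1, Rrm2 and Tk1 had a window without these letters. Pold1, Lig1 and E2f2, which also passed, had no match wholly before the start, and no window was used for Gmnn, Mcm4, Gins1 and Pole. Gins2, which passed no such test, had no window either. Cdc6, Cdt1, Mcm3 and Rfc3 had a match and also passed no such test. A CCAAT box, which NF-Y binds, stood in 60.6% of member windows and in 37.4% of all windows. It stood in 42.7% of windows of other genes of the pathway and in 75.0% of windows of mitosis genes. The letters TTTGAA of the CHR element, known from genes of late cell cycle phases, stood in 12.1% of member windows, 75.0% of windows of mitosis genes and 17.9% of all windows. A match describes letters only, and binding was not measured.

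**Figure D1:**
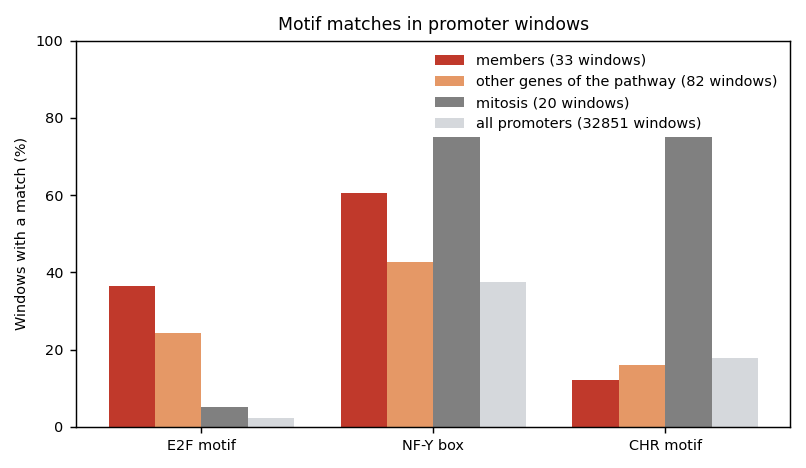
Bars give the percentage of RefSeq promoter windows that hold a match to the E2F motif, the NF-Y box or the CHR motif, for the members (33 windows), the other genes of the pathway (82), mitosis genes (20) and all promoters (32851). The E2F motif stood in 36.4% of member windows and 2.26% of all windows, and the CHR motif in 75.0% of mitosis windows.

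The deposited values were log2 values with array medians between 5.57 and 5.68. Tet2 read 9.64 to 9.93 in Tet2-/- cells at passage 10, 9.89 to 9.98 in Tet2-/- cells at passage 2, 9.80 to 9.93 in Tet2fl/fl cells at passage 10 and 9.89 to 10.08 in Tet2fl/fl cells at passage 2. The row covers the gene as a whole and thus does not check the deletion. Of the 6 immature myeloid markers, Ctsg (12.92 to 13.24), Mpo (10.90 to 12.67) and Fcgr3 (10.57 to 11.13) were high in every array, while Kit (9.56 to 11.14), Prtn3 (8.87 to 11.15) and Elane (8.27 to 12.03) varied more. The 10 late granulocyte markers reached from 4.42 to 12.20, with Itgam, which encodes the CD11b gated against in the sort, at 7.04 to 8.78, and Lcn2 at 10.28 to 11.36. Among the 5 monocyte and macrophage markers Adgre1 (11.71 to 12.46) and Ly6c2 (11.43 to 12.64) were high and Csf1r was at 6.37 to 7.14. Ebf1, Cd79a and Cd3e, of B and T cells, lay at 5.37 or below. Of the 8 mast cell, basophil and eosinophil markers, Cpa3 and Mcpt8 were also high, at 12.94 or above in every array. Ms4a2 (11.15 to 12.1), Prss34 (9.21 to 11.84) and Prg2 (8.61 to 11.65) were lower than these. Fcer1a (7.36 to 10.84), Epx (6.79 to 11.04) and Tpsab1 (5.48 to 7.96) reached down further.

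Replication genes as a group were lower at passage 10 than at passage 2 in both genotypes. In Tet2-/- cells 32 of 33 members had a negative difference (median -0.36 on the log2 scale, a ratio of 0.777), against 42.4% of all genes tested (median 0.04). In Tet2fl/fl cells 32 of 33 were negative as well (median -0.38, a ratio of 0.77), against 42.1% of all genes (median 0.03). The exception in both was E2f2. The Tet2-/- median was -0.21 without Tet2-/- passage 2 replicate 3 and -0.50 without replicate 2 of that group, and leaving out any 1 array kept the Tet2fl/fl median between -0.44 and -0.29. Limma with Benjamini-Hochberg adjustment over all 16860 genes called 4 members lower in Tet2-/- cells, namely Orc6, Gmnn, Orc1 and Tyms, where the share of all genes called lower was 1.73%. No member was called higher (1.25% of all genes). Same-number arrays were also treated as paired, and with the replicate as a block 11 members were called lower (4.68% of all genes) and 1 higher, E2f2 (3.26%). In Tet2fl/fl cells 0 members passed without the block (0 of all genes, 0%) or with it (0.0415%), while 19 had an unadjusted p under 0.05 and a negative difference (4.50% of all genes). The matching count in Tet2-/- cells was 20 (10.8% of all genes). The count of 4 in Tet2-/- cells became 0 when Tet2-/- passage 2 replicate 1 or 3 or any 1 of the passage 10 replicates 1, 2 and 3 was left out. It was 6 without Tet2-/- passage 2 replicate 2 and 2 without Tet2fl/fl passage 2 replicate 2.

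The overlap of the groups was counted as well. Arrays at passage 10 lay wholly below those at passage 2 for 10 members in Tet2-/- cells (12.9% of all genes) and for 23 members in Tet2fl/fl cells (6.55% of all genes). Pairs of arrays with the same replicate number gave a mean difference over the members of -0.37, -0.18 and -0.51 in Tet2-/- cells and of -0.14, -0.38 and -0.51 in Tet2fl/fl cells. A member was lower in all 3 pairs in 23 cases in Tet2-/- cells (21.0% of all genes) and in 27 cases in Tet2fl/fl cells (14.0% of all genes). In 21 members all 6 pairs were lower (8.43% of all genes). E2f2 was the single member higher in all 3 Tet2-/- pairs.

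**Figure D2:**
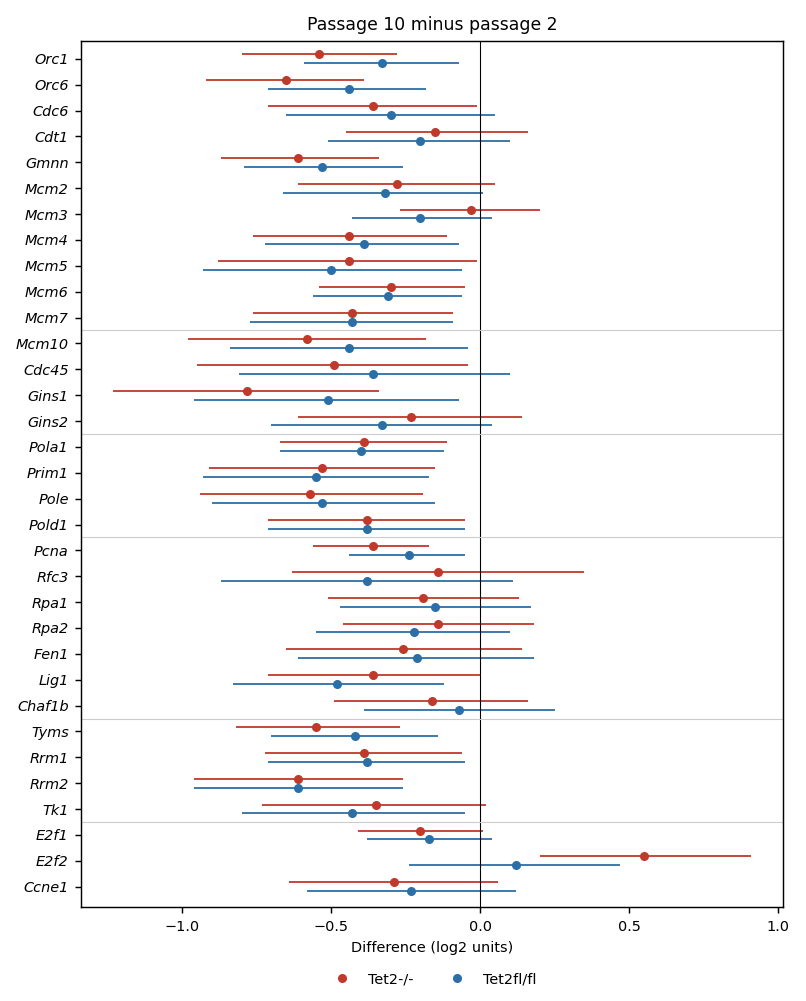
Points give the difference between passage 10 and passage 2 (log2 units) for each of the 33 members, in Tet2-/- cells (red) and in Tet2fl/fl cells (blue), with 95% confidence intervals from limma and members ordered by role. All points but those of E2f2 lie left of 0, down to -0.78 for Gins1 in Tet2-/- cells.

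All 11 origin licensing genes had negative passage differences, with a median of -0.43 in Tet2-/- cells and -0.33 in Tet2fl/fl cells. Orc6, a subunit of the origin recognition complex, read 8.60, 8.30 and 8.47 in Tet2-/- cells at passage 10, against 9.10, 8.92 and 9.30 at passage 2 (log2 values of replicates 1 to 3). It read 8.65, 8.64 and 8.42 in Tet2fl/fl cells at passage 10, against 8.96, 8.91 and 9.17 at passage 2. All passage 10 arrays lay below all passage 2 arrays in both genotypes. Orc6 fell by 0.65 ± 0.121 (SE) in Tet2-/- cells, 1.57-fold (limma adjusted p = 0.0289, with 0.00809 to 0.0994 over 22 alternatives), and its difference in Tet2fl/fl cells was -0.44 (adjusted p = 0.401). Orc1, the largest subunit of that complex, read 6.49, 6.44 and 6.53 in Tet2-/- cells at passage 10, against 7.02, 6.82 and 7.22 at passage 2. Its Tet2fl/fl values were 6.56, 6.75 and 6.45 at passage 10, against 6.74, 6.97 and 7.04 at passage 2. The Tet2-/- groups did not overlap, whereas the Tet2fl/fl groups did, by 1 array each. Orc1 fell by 0.54 ± 0.119 in Tet2-/- cells (1.45-fold, limma adjusted p = 0.0421, 0.0129 to 0.133 over the alternatives), and its difference was -0.33 in Tet2fl/fl cells (adjusted p = 0.429).

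Gmnn encodes geminin, which binds Cdt1 and blocks relicensing. It read 7.01, 7.0 and 7.10 in Tet2-/- cells at passage 10, against 7.63, 7.55 and 7.75 at passage 2. Its values in Tet2fl/fl cells were 7.10, 6.97 and 7.05 at passage 10, against 7.53, 7.31 and 7.86 at passage 2. The 6 passage 10 arrays spanned only 6.97 to 7.10, below every passage 2 array. Gmnn fell by 0.61 ± 0.121 in Tet2-/- cells, 1.52-fold (limma adjusted p = 0.0342, 0.0117 to 0.113 over the alternatives). Its difference in Tet2fl/fl cells was -0.53 ± 0.121 (adjusted p = 0.401). The licensing factors Cdc6 and Cdt1, which recruit the helicase, had differences of -0.36 and -0.15 in Tet2-/- cells and of -0.30 and -0.20 in Tet2fl/fl cells, and neither passed. Within the MCM hexamer, Mcm2, Mcm4, Mcm5, Mcm6 and Mcm7 had differences of -0.44 to -0.28 in Tet2-/- cells and of -0.50 to -0.31 in Tet2fl/fl cells, and none passed in either genotype alone. Mcm3, the remaining subunit, differed by only -0.03 (95% CI -0.27 to 0.20) in Tet2-/- cells and by -0.20 (-0.43 to 0.04) in Tet2fl/fl cells.

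Helicase activators had a median passage difference over 4 members of -0.54 in Tet2-/- cells and -0.40 in Tet2fl/fl cells. Gins1, a GINS subunit, read 6.37, 5.99 and 6.64 in Tet2-/- cells at passage 10, against 7.04, 6.83 and 7.47 at passage 2. Tet2fl/fl cells had 6.56, 6.39 and 6.44 at passage 10, against 6.68, 6.94 and 7.31 at passage 2. Neither genotype's groups overlapped. Its difference of -0.78 ± 0.203 in Tet2-/- cells, a ratio of 0.582, was the most negative of all members and passed with the replicate block (limma adjusted p = 0.0623, 0.017 with the block, 0.017 to 0.192 over the alternatives). The difference in Tet2fl/fl cells was -0.51 (adjusted p = 0.45). Mcm10, which links the helicase to polymerase alpha, read 7.36, 7.07 and 7.55 in Tet2-/- cells at passage 10, against 7.92, 7.54 and 8.28 at passage 2. Its Tet2fl/fl values were 7.54, 7.48 and 7.41 at passage 10, against 7.67, 7.96 and 8.12 at passage 2. Passage 10 replicate 3 and passage 2 replicate 2 of Tet2-/- cells overlapped narrowly, and the Tet2fl/fl groups stood apart. Mcm10 had differences of -0.58 ± 0.182 in Tet2-/- cells (limma adjusted p = 0.102, 0.0461 with the block, 0.0461 to 0.293 over the alternatives) and -0.44 in Tet2fl/fl cells (adjusted p = 0.455). Cdc45 differed by -0.49 and Gins2 by -0.23 in Tet2-/- cells, and by -0.36 and -0.33 in Tet2fl/fl cells, with no call.

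All 4 polymerase and primase genes had negative passage differences, with a median of -0.46 in each genotype. Prim1, the catalytic primase subunit, read 7.39, 7.22 and 7.50 in Tet2-/- cells at passage 10, against 7.88, 7.58 and 8.25 at passage 2. It read 7.64, 7.21 and 7.33 in Tet2fl/fl cells at passage 10, against 7.78, 7.87 and 8.18 at passage 2. Both genotypes' groups stood apart. The Prim1 difference was -0.53 ± 0.172 in Tet2-/- cells (limma adjusted p = 0.111, 0.0428 with the block, 0.0428 to 0.296 over the alternatives) and -0.55 in Tet2fl/fl cells (adjusted p = 0.413). Pole, the catalytic subunit of the leading strand polymerase, read 8.19, 8.02 and 8.58 in Tet2-/- cells at passage 10, against 8.82, 8.53 and 9.14 at passage 2. The Tet2fl/fl values were 8.36, 8.22 and 8.34 at passage 10, against 8.68, 8.77 and 9.05 at passage 2. Only the Tet2-/- groups overlapped. Pole differed by -0.57 ± 0.171 in Tet2-/- cells (limma adjusted p = 0.0929, 0.0186 with the block, 0.0186 to 0.274 over the alternatives) and by -0.53 in Tet2fl/fl cells (adjusted p = 0.416). A dimmer Pole row, with a mean of 5.63 against 8.56 for the row used, went the other way, by 0.14 in Tet2-/- cells and 0.09 in Tet2fl/fl cells. Pold1, the catalytic subunit of the lagging strand polymerase, read 9.11, 8.89 and 9.35 in Tet2-/- cells at passage 10, against 9.50, 9.22 and 9.78 at passage 2. Tet2fl/fl cells had 9.26, 9.14 and 9.27 at passage 10, against 9.47, 9.55 and 9.78 at passage 2. The Tet2-/- groups overlapped and the Tet2fl/fl groups did not. The Pold1 difference was -0.38 ± 0.15 in Tet2-/- cells (limma adjusted p = 0.169, 0.0435 with the block, 0.0435 to 0.443 over the alternatives) and -0.38 in Tet2fl/fl cells (adjusted p = 0.45). Pola1, of polymerase alpha, differed by -0.39 and -0.40 in Tet2-/- and Tet2fl/fl cells, without a call in either.

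Clamp, clamp loader, single-strand binding, ligation and histone deposition genes had median differences over 7 members of -0.19 in Tet2-/- cells and -0.22 in Tet2fl/fl cells. Pcna, the sliding clamp, read 11.19, 11.10 and 11.23 in Tet2-/- cells at passage 10, against 11.44, 11.47 and 11.69 at passage 2. Its values in Tet2fl/fl cells were 11.28, 11.31 and 11.22 at passage 10, against 11.39, 11.52 and 11.62 at passage 2. Groups stood apart in both genotypes, and the spread within them was small. Pcna differed by -0.36 ± 0.089 in Tet2-/- cells (limma adjusted p = 0.0524, 0.0325 with the block, 0.0267 to 0.173 over the alternatives) and by -0.24 in Tet2fl/fl cells (adjusted p = 0.431). Lig1, the ligase that joins Okazaki fragments, read 8.02, 8.23 and 8.37 in Tet2-/- cells at passage 10, against 8.55, 8.28 and 8.86 at passage 2. It read 8.11, 8.32 and 8.44 in Tet2fl/fl cells at passage 10, against 8.52, 8.82 and 8.96 at passage 2. The Lig1 groups overlapped in Tet2-/- cells only, and its differences of -0.36 and -0.48 in Tet2-/- and Tet2fl/fl cells did not pass (limma adjusted p = 0.228 and 0.416). Rfc3, Rpa1, Rpa2 and Fen1, of the clamp loader, the single-strand binding complex and flap removal, had differences of -0.26 to -0.14 in Tet2-/- cells and of -0.38 to -0.15 in Tet2fl/fl cells, with overlapping groups throughout. Second, dimmer rows of Fen1 and Rpa1 differed by -0.01 and 0.02 in Tet2-/- cells and by -0.05 and -0.11 in Tet2fl/fl cells.

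Deoxynucleotide synthesis genes had median differences over 4 members of -0.47 in Tet2-/- cells and -0.42 in Tet2fl/fl cells. Tyms, which makes the thymidylate used for DNA, read 9.66, 9.29 and 9.52 in Tet2-/- cells at passage 10, against 10.05, 9.84 and 10.21 at passage 2. Tet2fl/fl cells had 9.47, 9.59 and 9.37 at passage 10, against 9.76, 9.87 and 10.07 at passage 2. No passage 10 array reached any passage 2 array in either genotype. Tyms fell by 0.55 ± 0.127 in Tet2-/- cells, 1.46-fold (limma adjusted p = 0.0439, 0.0142 to 0.153 over the alternatives), and its difference was -0.42 in Tet2fl/fl cells (adjusted p = 0.401). Rrm2, the regulated subunit of ribonucleotide reductase, read 8.97, 8.89 and 9.18 in Tet2-/- cells at passage 10, against 9.52, 9.38 and 9.98 at passage 2. Its Tet2fl/fl values were 9.14, 9.18 and 8.91 at passage 10, against 9.44, 9.81 and 9.82 at passage 2. Both pairs of groups stood apart and the size matched, at -0.61 ± 0.16 in each genotype, a ratio of 0.653 in Tet2-/- cells and 0.654 in Tet2fl/fl cells. Rrm2 passed in Tet2-/- cells with the replicate block (limma adjusted p = 0.0624, 0.0389 with the block, 0.0349 to 0.184 over the alternatives) and did not pass in Tet2fl/fl cells (0.401). A dim second row of Rrm2, under the filter, had differences of -0.39 in Tet2-/- cells and -0.53 in Tet2fl/fl cells. Rrm1, the large reductase subunit, and Tk1, the S phase thymidine kinase, differed by -0.39 and -0.35 in Tet2-/- cells and by -0.38 and -0.43 in Tet2fl/fl cells, without a call.

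**Figure D3:**
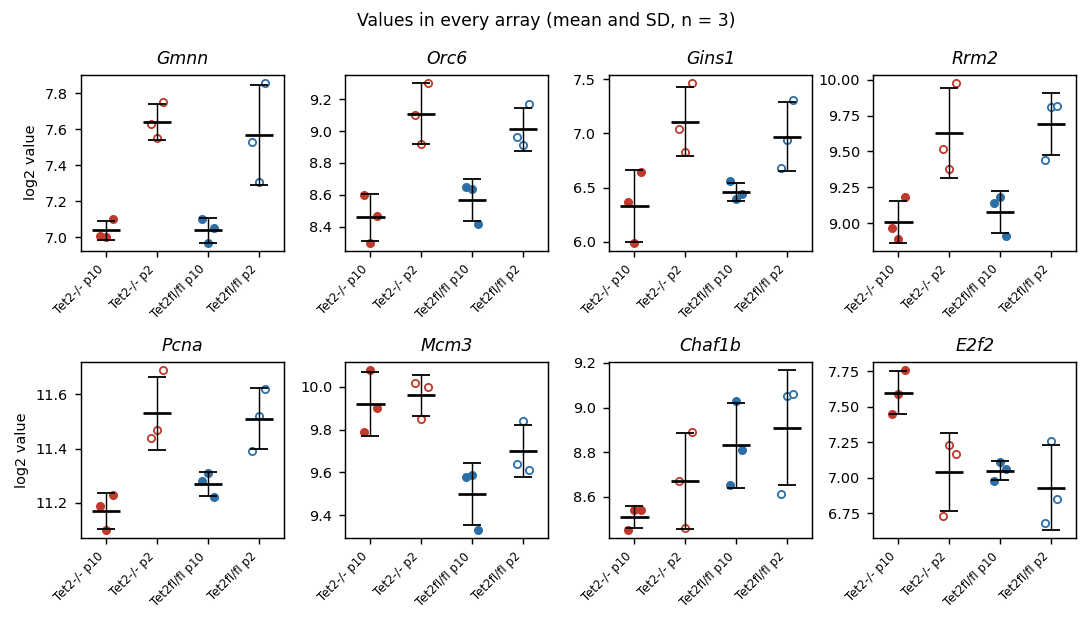
Each panel plots the log2 value of 1 gene in every array, by group, with horizontal bars for the mean and the SD of 3 arrays, on an axis that does not start at 0. Gmnn, Orc6, Gins1, Rrm2 and Pcna are lower at passage 10 in both genotypes, Mcm3 is higher in Tet2-/- than in Tet2fl/fl arrays of the same passage, and E2f2 reaches 7.45 to 7.76 in Tet2-/- cells at passage 10.

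The 3 measured G1/S regulators had median differences of -0.20 in Tet2-/- cells and -0.17 in Tet2fl/fl cells. E2f1, an activator of replication genes, read 8.79, 8.88 and 8.91 in Tet2-/- cells at passage 10, against 9.16, 8.85 and 9.18 at passage 2. It read 8.96, 8.92 and 8.87 in Tet2fl/fl cells at passage 10, against 9.14, 8.98 and 9.14 at passage 2. The groups overlapped in Tet2-/- cells, and the differences were -0.20 ± 0.096 (limma adjusted p = 0.258) and -0.17 ± 0.096 (0.559) in Tet2-/- and Tet2fl/fl cells. E2f2, a related activator, read 7.45, 7.59 and 7.76 in Tet2-/- cells at passage 10, against 6.73, 7.23 and 7.17 at passage 2. Tet2fl/fl cells had 6.98, 7.11 and 7.06 at passage 10, against 6.68, 7.26 and 6.85 at passage 2. All 3 Tet2-/- passage 10 arrays lay above every other array of the study. In Tet2-/- cells 1 of 33 members and 2598 of all 16860 genes lay wholly higher at passage 10 than at passage 2. With the block 3.26% of all genes were called higher in that comparison. The E2f2 difference in Tet2-/- cells was 0.55 ± 0.162, a ratio of 1.47, and passed with the replicate block (limma adjusted p = 0.0837, 0.0233 with the block, 0.0203 to 0.231 over the alternatives), while it was 0.12 ± 0.162 in Tet2fl/fl cells (adjusted p = 0.823). Ccne1, the cyclin that drives S phase entry with Cdk2, differed by -0.29 and -0.23 in Tet2-/- and Tet2fl/fl cells, without a call.

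Averaged over both genotypes, a contrast added after seeing the data, 16 members were lower at passage 10 (limma, Benjamini-Hochberg, 4.52% of all genes called lower), with a median difference of -0.38. They were Orc1, Orc6, Gmnn, Mcm4, Mcm6, Mcm7, Mcm10, Gins1, Pola1, Prim1, Pole, Pcna, Lig1, Tyms, Rrm1 and Rrm2. None was higher (3.25% of all genes). With the replicate block Mcm5, Cdc45, Pold1 and Tk1 joined, for 20 lower (7.28% of all genes), and E2f2 was higher (5.90%). Gmnn fell by 0.57 ± 0.086 (adjusted p = 0.0101, 0.00247 to 0.0326 over 21 alternatives) and Orc6 fell by 0.55 ± 0.086 (0.0106, 0.0045 to 0.0348). Orc1, Orc6, Gmnn, Tyms and Rrm2 passed under all 21 alternatives. The remaining calls moved with single arrays. Counts fell to 10 and 5 without Tet2fl/fl passage 2 replicates 2 and 3, and to 7 and 5 without Tet2fl/fl passage 10 replicates 2 and 3. They fell to 6 without Tet2-/- passage 2 replicate 1 or 3, and to 8 and 5 without Tet2-/- passage 10 replicates 1 and 2. With array medians made equal, 10 members passed.

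The members were also summarised array by array. Their mean deviation from each gene's own mean was -0.26, -0.27 and -0.05 in Tet2-/- cells at passage 10, against 0.11, -0.09 and 0.46 at passage 2. It was -0.13, -0.15 and -0.19 in Tet2fl/fl cells at passage 10, against 0.01, 0.23 and 0.32 at passage 2. Tet2-/- passage 2 replicate 3 had all 33 members above their mean, while replicate 2 of the same group had 22 of 33 below it. The SD between replicates was 0.122 in Tet2-/- cells at passage 10, 0.274 in Tet2-/- cells at passage 2, 0.032 in Tet2fl/fl cells at passage 10 and 0.16 in Tet2fl/fl cells at passage 2. The 10 late granulocyte markers had mean deviations of -0.72 to -0.20 in Tet2-/- cells at passage 10, against 0.03 to 0.75 at passage 2, and of -1.25 to 0.35 in Tet2fl/fl cells at passage 10, against -0.17 to 1.22 at passage 2. In Tet2-/- cells 7 of them had negative passage differences and 3 positive ones, while all 10 were negative in Tet2fl/fl cells. Ly6g rose in Tet2-/- cells, to 6.34 to 7.61 at passage 10 from 5.06 to 6.32 at passage 2. The 6 immature myeloid markers had mean deviations of -0.51 to -0.12 in Tet2-/- cells at passage 10, against -0.15 to 0.34 at passage 2, and of -0.83 to 0.51 in Tet2fl/fl cells at passage 10, against -0.02 to 0.44 at passage 2. Among them Elane had the most negative passage difference, -1.69 in Tet2-/- cells and -1.38 in Tet2fl/fl cells, and was called lower in Tet2-/- cells with the replicate block only, while Ctsg, Fcgr3 and Kit had positive differences in both. The 5 monocyte and macrophage markers ran the other way in Tet2fl/fl cells, at -0.16 to 0.21 at passage 10, against -0.37 to -0.19 at passage 2. In Tet2-/- cells they lay at 0.21 to 0.34 at passage 10, against -0.19 to 0.23 at passage 2. The 75th percentile of each array lay at 7.49 to 7.59 in Tet2-/- cells at passage 10, against 7.64 to 7.66 at passage 2, and at 7.51 to 7.60 in Tet2fl/fl cells at passage 10, against 7.54 to 7.67 at passage 2. The part of other cell types and of array brightness in the passage differences was not tested beyond the equal-median and quantile scalings. Those scalings gave 2 and 5 members passing in Tet2-/- cells.

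**Figure D4:**
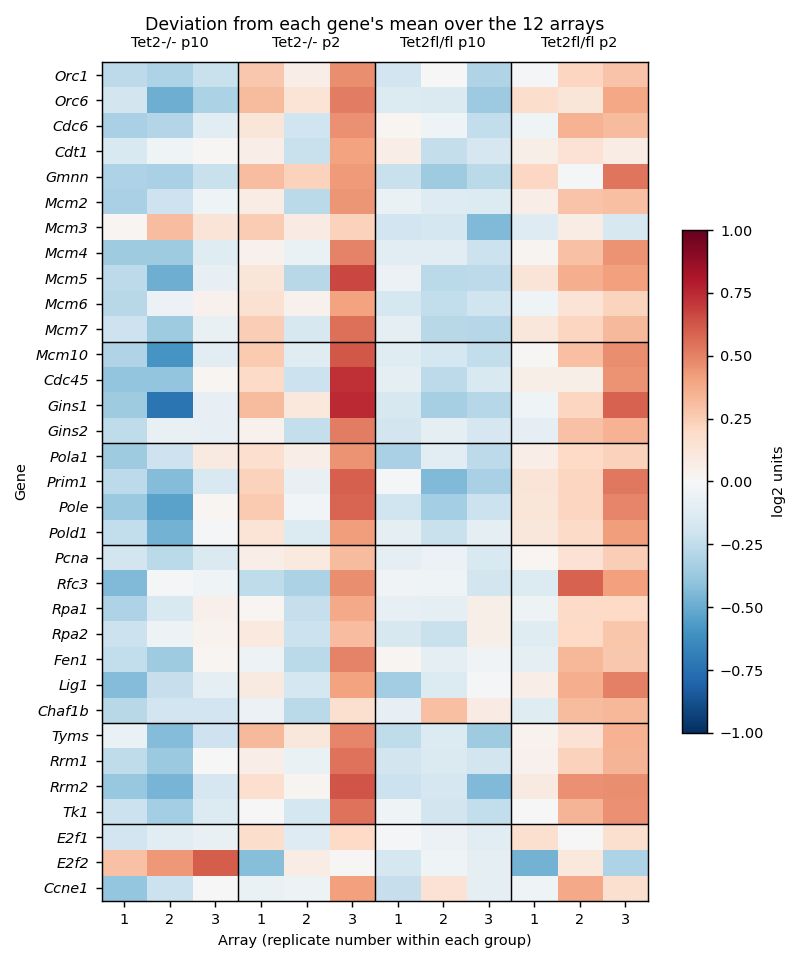
Colours give the deviation (log2 units) of each of the 33 members from its own mean over the 12 arrays, with arrays in columns by group and replicate number and genes in rows by role. Most rows are blue at passage 10 and red at passage 2, Tet2-/- passage 2 replicate 3 is the reddest column, and E2f2 runs the other way in Tet2-/- cells.

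No replication gene passed for genotype at passage 10 or passage 2. At passage 10 the median difference between Tet2-/- and Tet2fl/fl cells was -0.08 and 0 members passed, without the replicate block (0.225% of all genes) or with it (1.31%), while 3 had an unadjusted p under 0.05 (10.6% of all genes). At passage 2 the median was -0.03, with -0.20 without Tet2-/- replicate 3 and 0.09 without Tet2-/- replicate 2, and 0 members passed without the block (0.00593% of all genes) or with it (0.409%), while 1 had an unadjusted p under 0.05 (9.95%). The width of the intervals varied, with a 95% CI at passage 10 of -0.27 to 0.26 for Gmnn and of -0.58 to 0.32 for Gins1. Same-number pairs at passage 2 did not run one way: the mean difference over the members was 0.10, -0.32 and 0.14 in pairs 1, 2 and 3, and 3, 30 and 3 of the 33 members were lower in Tet2-/- cells. At passage 10 these means were -0.13, -0.12 and 0.14, with 30, 24 and 4 members lower.

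Mcm3, E2f2 and Chaf1b were the members with an unadjusted p under 0.05 for genotype. Mcm3 read 9.79, 10.08 and 9.90 in Tet2-/- cells at passage 10, against 9.58, 9.59 and 9.33 in Tet2fl/fl cells at passage 10. At passage 2 it read 10.02, 9.85 and 10.00 in Tet2-/- cells, against 9.64, 9.84 and 9.61 in Tet2fl/fl cells. The genotypes did not overlap within either passage, though by only 0.01 at passage 2, and Tet2-/- was higher in all 6 same-number pairs. Among the 33 members 2 lay wholly higher in Tet2-/- cells at passage 10 and 1 at passage 2. Of all 16860 genes 1104 and 1201 did so. Mcm3 differed by 0.42 ± 0.107 at passage 10 (1.34-fold, limma adjusted p = 0.155) and by 0.26 ± 0.107 at passage 2 (1.20-fold, adjusted p = 0.456). Averaged over both passages, again a contrast added after seeing the data, Mcm3 was 0.34 ± 0.076 higher (1.27-fold, limma adjusted p = 0.0486, 0.0283 to 0.125 over the alternatives), and 0.658% of all genes were called higher. That call was lost with equal array medians, without the filter on dim rows, and without any 1 of the Tet2-/- passage 2 replicates 1, 2 and 3, the Tet2fl/fl passage 2 replicates 1, 2 and 3, the Tet2-/- passage 10 replicates 2 and 3 or the Tet2fl/fl passage 10 replicates 2 and 3. The difference itself stayed between 0.30 and 0.38. The mean deviation over the 8 mast cell, basophil and eosinophil markers also separated the genotypes, at -0.71 to -0.05 in Tet2-/- arrays and 0.18 to 0.62 in Tet2fl/fl arrays. The single markers did not all go that way. Averaged over passages, 5 were lower and 3 higher in Tet2-/- cells. The part of these markers in the Mcm3 value was not tested.

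E2f2 differed between Tet2-/- and Tet2fl/fl cells by 0.55 ± 0.162 at passage 10 (1.46-fold, limma adjusted p = 0.239) and by 0.11 ± 0.162 at passage 2 (adjusted p = 0.861). This comparison shares its Tet2-/- passage 10 arrays with the passage comparison above. The average over passages was 0.33 ± 0.114 (limma adjusted p = 0.176, and 0.0451 with the block, 0.0451 to 0.335 over the alternatives), and 2.16% of all genes were called higher with the block. Chaf1b, a subunit of the CAF-1 histone chaperone that packages new DNA, read 8.45, 8.54 and 8.54 in Tet2-/- cells at passage 10, against 8.65, 9.03 and 8.81 in Tet2fl/fl cells at passage 10. At passage 2 it read 8.67, 8.46 and 8.89 in Tet2-/- cells, against 8.61, 9.05 and 9.06 in Tet2fl/fl cells. Only the passage 10 groups stood apart. At that passage 1 of 33 members and 1653 of all 16860 genes lay wholly lower in Tet2-/- cells. The differences were -0.32 ± 0.146 at passage 10 (limma adjusted p = 0.467) and -0.23 ± 0.146 at passage 2 (0.64).

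**Figure D5:**
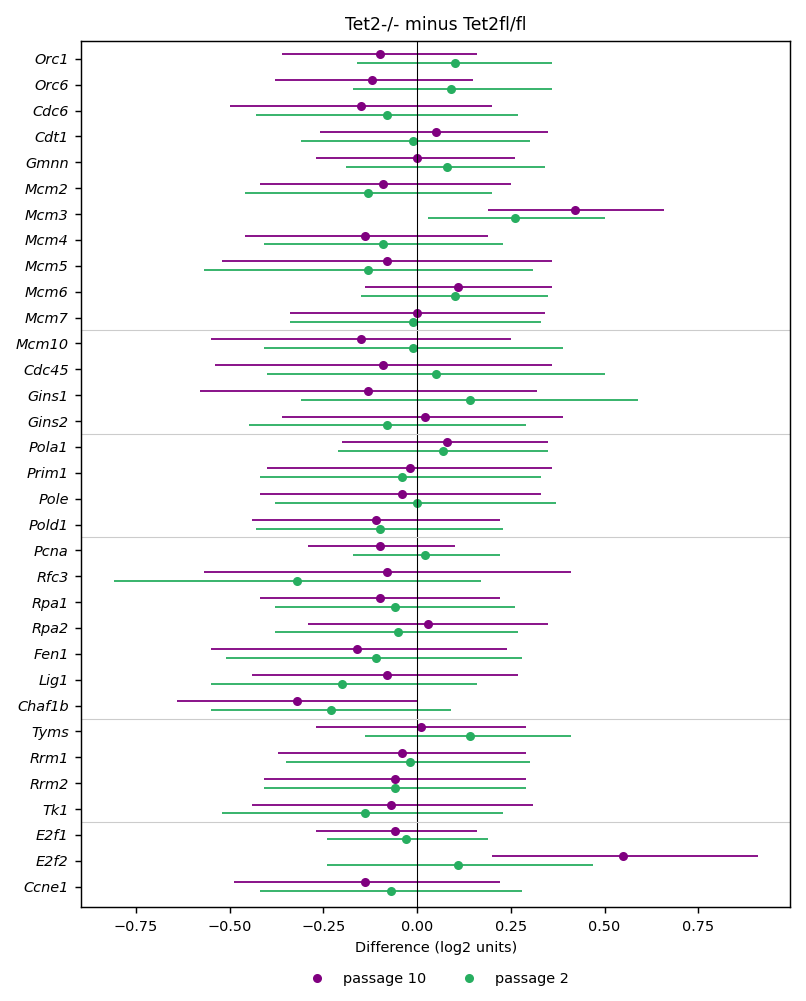
Points give the difference between Tet2-/- and Tet2fl/fl cells (log2 units) for each of the 33 members at passage 10 (purple) and passage 2 (green), with 95% confidence intervals from limma and members ordered by role. Most intervals include 0, and Mcm3 (0.42 at passage 10) and E2f2 (0.55 at passage 10) lie farthest to the right.

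Whether passage acted differently in the genotypes was tested by the interaction, the genotype difference at passage 10 minus that at passage 2. Its median over the members was -0.01, and 0 members passed without the block (0 of all genes, 0%) or with it (0.00593%). None had an unadjusted p under 0.05 without the block (3.22% of all genes). With the block E2f2 alone of the 33 members did, against 433 positive and 405 negative of all 16860 genes. E2f2 had the most positive value, 0.44 ± 0.229 (95% CI -0.07 to 0.94, limma adjusted p = 0.999). Gins1 had the most negative, -0.27 ± 0.287 (95% CI -0.90 to 0.36). For Orc6, which passed in Tet2-/- cells alone, it was -0.21 (95% CI -0.59 to 0.16), so the calls above do not show a difference between genotypes.

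Other genes of replication and the G1/S switch were taken from a separate list. Of 79 such genes 76 were measured, and in Tet2-/- cells 62 had negative passage differences (median -0.33), against 60 in Tet2fl/fl cells (median -0.21). The roles differed. Of the 25 G1/S regulators among them 16 were negative in Tet2-/- cells (median -0.12) and 14 in Tet2fl/fl cells (median -0.08). The 7 licensing genes and the 12 genes of helicase activation and fork protection were all negative in both genotypes. Limma called Dut, Asf1a, Tipin, Rbl1, Orc3, Ctps, Uhrf1 and Wdhd1 lower and Pold4 higher in Tet2-/- cells, against 1.73% and 1.25% of all genes. None was called in Tet2fl/fl cells, where 26 were lower at an unadjusted p under 0.05 (4.50% of all genes). With the block the calls were 23 lower and 2 higher in Tet2-/- cells (4.68% and 3.26% of all genes), and 0 in Tet2fl/fl cells (0.0415%). Tipin, which protects stalled forks, fell by 0.93 ± 0.186 in Tet2-/- cells (adjusted p = 0.0342) and differed by -0.46 in Tet2fl/fl cells. Dut, which clears dUTP before it enters DNA, fell by 0.66 ± 0.113 (0.026) and differed by -0.51 in Tet2fl/fl cells. Asf1a, a histone chaperone, fell by 0.57 (0.0319), Rbl1, a pocket protein that binds E2F factors, by 0.49 (0.0398), and Orc3 by 0.45 (0.0426). Pold4, the small accessory subunit of polymerase delta, rose by 0.41 ± 0.079 (0.0313) and differed by 0.26 in Tet2fl/fl cells. Averaged over genotypes 25 were lower and 1 higher (4.52% and 3.25% of all genes), and with the block 39 and 2 (7.28% and 5.90%). For Uhrf1, which reads hemimethylated DNA behind the fork, the average was -0.57 (adjusted p = 0.0133), and for Wdhd1, a fork scaffold, -0.60 (0.0139).

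Between genotypes 0 other genes of the pathway passed at passage 10 or passage 2, with the block or without, where 8 and 4 of 76 had an unadjusted p under 0.05, against 10.6% and 9.95% of all genes. Those at passage 2 were Ccnd1, Ccnd2, Ccnd3 and Asf1a. The smallest p belonged to Ccnd2 (-0.40 at passage 10 and -0.33 at passage 2) and Ccnd1 (-0.59 and -0.39), D-type cyclins that drive G1. Averaged over passages Ccnd2 was lower in Tet2-/- cells by a difference of -0.36 ± 0.068 (limma adjusted p = 0.0247, 1.06% of all genes called lower). With the block Ccnd1, at -0.49, and E2f3, a further E2F activator, at -0.26, were also called lower (3.25% of all genes). Cdkn2a, the locus of the G1 inhibitor p16, had a passage difference of 0.00 in Tet2-/- cells and 0.45 in Tet2fl/fl cells (adjusted p = 0.431), with an interaction of -0.45 (95% CI -0.95 to 0.06). Rbl2, a further pocket protein, had an interaction of 0.19 (95% CI -0.04 to 0.41).

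Mitosis genes, which peak later in the cell cycle than the replication genes, were lower at passage 10 too. All 23 measured of 24 had negative differences in both genotypes, with a median of -0.47 in Tet2-/- cells and -0.56 in Tet2fl/fl cells. In Tet2-/- cells Bub1, Cenpe and Tpx2 fell by 0.70, 0.76 and 0.48 (limma adjusted p = 0.0442, 0.0462 and 0.0437), where 1.73% of all genes were called lower, and 16 passed with the block (4.68% of all genes), among them Anln, Nuf2 and Mki67. In Tet2fl/fl cells 0 passed without the block, where 18 had an unadjusted p under 0.05 (4.50% of all genes were lower at that p), and Cdkn3, Kif11 and Anln passed with it (0.0415%), at -0.64, -0.63 and -0.65. Kif23, a kinesin of cytokinesis, differed by -0.42 in Tet2-/- cells and by -0.79 in Tet2fl/fl cells, with an interaction of 0.37 (95% CI -0.11 to 0.85), and for Cdkn3 the interaction was 0.25 (-0.17 to 0.68). Averaged over genotypes 15 passed without the block (4.52% of all genes) and all 23 with it (7.28%), with the smallest p for Bub1 at -0.69 and Tpx2 at -0.45. Top2a, the topoisomerase that untangles sister chromatids, and Bub1, of the spindle checkpoint, differed by 0.24 and 0.27 between Tet2-/- and Tet2fl/fl cells on average over passages and did not pass (limma adjusted p = 0.278 and 0.284). For genotype 0 mitosis genes passed at passage 10 or at passage 2 in either fit. Without the block 0 reached an unadjusted p under 0.05, against 10.6% and 9.95% of all genes at passage 10 and passage 2. Fitting the block put 2 of 23 below that cutoff at passage 10 and 1 at passage 2, all higher in Tet2-/- cells. In that fit 1047 and 984 of all 16860 genes were higher at this cutoff. Genotype differences were positive for 18 of 23 at passage 10 and 16 at passage 2, and negative for 5 and 7. Of all 16860 genes 7993 and 8290 were positive. The smallest p belonged to Top2a (0.26) and Kif23 (0.27) at passage 10, and to Bub1 (0.28) and Top2a (0.22) at passage 2.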

How the data were processed

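The deposited values of the 12 GeneChip Mouse Gene ST 2.0 arrays are log2 values made by the authors with RMA in Affymetrix Power Tools, per the submitters' processing notes (versions not given in the sources used). Rows whose mean reached the 30th percentile (log2 4.70) were kept, 28941 of 41345. Symbols came from the platform annotation, updated by gene ID (23328 of 23521 rows with 1 symbol matched a GRCm38.p6 table), and the brightest row stood for a gene. Limma 3.58.1 in R 4.3.3 fitted 1 mean per group, with two-sided moderated tests and Benjamini-Hochberg adjustment over 16860 genes at 0.05. It was tested on simulated data.

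Members and lists were chosen with earlier results of these data known. Values in every array are given for members that passed in any of 5 contrasts, with or without the block, or had the smallest p of their role in a contrast of 2 groups. Other genes named passed (the 6 smallest p of a contrast) or, where none passed, had the 2 smallest p. Ctps, Ccnd3 and further members of short call lists were named after their values were seen.

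Replicate numbers 1 to 3 come from the labels. Deviations of same-number arrays from their group means correlated at 0.201 to 0.517 in all 18 pairs, so the numbers were treated as pairing the samples. The 36 other pairs gave -0.369 to 0.0532. Deviations within a group sum to 0, so this lower range partly follows from the first and is no separate support. The number of arrays limits the precision. Alternatives were scaling, filter, trend, array weights, replicate block, row means, arrays in the fit, and leaving out each array.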

Additional observations from a re-analysis of the deposited data

How the results depend on the processing

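In Tet2-/- cells the count of members passing for passage was 4. It was 2 with equal array medians, 2 without the filter, 7 with a filter at the 50th percentile, 8 with array weights, 12 with the replicate block, 9 with replicates as a random block, and 0 when only the compared arrays were fitted, which leaves 4 residual degrees of freedom. Leaving out 1 array gave 0 to 6. For the average of both passage differences the count of 16 became 10 with equal medians and 5 to 23 when 1 array was left out. For the average of both genotype differences the count of 1 became 0 with equal medians, 0 without the filter, 2 with the replicate block, and 0 to 1 when 1 array was left out. The cause of these shifts was not tested. Counts in Tet2fl/fl cells, for genotype at each passage and for the interaction were 0 under every alternative run. None of the 684 alternative values of the 32 tested member results changed sign. Each of these results had passed in the main fit or with the block, so a change of sign was unlikely from the start. None of 144 alternative medians moved by more than the SD within groups, 0.171. Dropping 1 array moves a group mean by only part of that array's deviation. For those alternatives a shift beyond the SD was therefore unlikely from the start, and its absence is no sign of stability. Leaving out 1 array spread the Tet2-/- passage median over -0.50 to -0.21. The genotype median at passage 2 then ranged over -0.20 to 0.09, on both sides of 0. With the replicate block the average of both passage differences had 20 members lower and 1 higher. The block changed no member call in Tet2fl/fl cells, for genotype at each passage or for the interaction. Detection above background was not used here, and the filter on the mean stood in for it.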
